A study of Mus musculus with 6 samples.

Results

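The EGF family of ligands and the ErbB receptors they act on were examined in cultures of mouse aortic endothelial cells with and without a dominant negative PPARG. The members were chosen by gene name, as all probe sets of the array that the array annotation assigns to Hbegf, Areg, Ereg, Btc, Tgfa, Egfr, Erbb2 or Erbb3. This gave 18 probe sets for 7 of the 8 genes, out of 45037 probe sets for 18193 genes in all. The annotation used lists no probe set under Areg, so amphiregulin was not analysed here. Of the 18 probe sets, 12 reached the level required for testing, a mean over the 6 arrays at or above that of the middle probe set, array controls left out (a signal of 194.3). All 7 genes were on the array with at least 1 probe set, and Erbb3 had none above that level.

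Ligands of this family are made as membrane proteins whose EGF-like domain is cut off by ADAM proteases, most often ADAM17. The released domain binds EGFR or ErbB4 on the same or a neighbouring cell, the receptors pair up, often with ERBB2 or ERBB3, and the Ras-ERK and PI3K-AKT cascades are switched on. ERK signalling in turn raises transcripts of several of the ligands and of inhibitors that damp the cascade. In vessels the family is known mostly from smooth muscle cells and fibroblasts, which respond to it, and from endothelial cells and macrophages, which release HB-EGF and epiregulin.

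Both groups were primary cultures from the aorta of mice of strain C57, with no treatment, and the labels used here give no age. The transgenic mice carried human PPARG with the V290M change under the endothelial CDH5 promoter, and the non-transgenic mice, whose cultures are called the controls below, carried no transgene. Cells of 10 mice per group were kept as 5 separate cultures of 2 mice each, and 3 cultures per group were put on 1 Affymetrix mouse genome array each, so n = 3 cultures per group throughout. The promoter limits the transgene to cells that use it. On these arrays 5 of 12 endothelial markers lay above the testing level, and both Cdh5 itself (at most 7.19 on the log2 scale) and Pecam1 (at most 6.34) lay below it on every array, whereas 9 of 9 fibroblast markers lay above it on the mean over the arrays, and 8 of 9 did on transgenic replicate 2.

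Values are deposited signals on a linear scale, and a difference is the transgenic mean less the control mean of log2(signal + 16), a scale that makes changes of dim probe sets look smaller. With 3 arrays per group precision is limited throughout, and fewer cells of a type and less RNA per cell cannot be told apart in such cultures. The median signal per array was 219.9 to 222.9 in the controls and 173 to 186.1 in the transgenic cultures. Over the whole table transgenic replicate 3 was closer to the control arrays (mean rank correlation 0.962) than to the other transgenic arrays (0.91). Results are therefore given with and without it. Since it was left out for its likeness to the controls, larger differences and smaller p-values without it follow in part from that choice. Values from the fit without it describe the other arrays and are no independent test. Transgenic replicate 2 had 7 of 10 leukocyte and macrophage markers above the testing level, against 1 or 2 on each other array. As a sign of RNA length, the array's Gapdh control probe sets gave a 3' to 5' ratio of 1.59 ± 0.11 (SD, n = 3) for the controls and of 1.33 ± 0.12 (SD, n = 3) for the transgenic cultures (exact two-sided permutation p = 0.1, the smallest that 3 against 3 allows).

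Promoters are shown for Egfr, which lay lower in the transgenic cultures, and for Tgfa, a ligand that lay higher. Among the members with a tested probe set whose promoter was searched, these were the ones with a match to any motif. Promoters from RefSeq (build GRCm38.p6) were searched for 5 of the 8 genes, and those of Hbegf, Ereg and Erbb3 were not searched. The 250 bases before the start are written 5′ to 3′ on the strand of the gene, which is the plus strand for both, and capitals mark the GC box, a motif bound by Sp1 family factors. Egfr lies at chr11:16751953-16752202 and Tgfa at chr6:86194972-86195221.
Egfr: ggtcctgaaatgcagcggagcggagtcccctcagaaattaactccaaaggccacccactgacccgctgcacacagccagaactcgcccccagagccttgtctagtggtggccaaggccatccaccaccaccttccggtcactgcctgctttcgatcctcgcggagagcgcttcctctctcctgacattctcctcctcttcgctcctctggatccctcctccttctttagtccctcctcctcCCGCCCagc
Tgfa: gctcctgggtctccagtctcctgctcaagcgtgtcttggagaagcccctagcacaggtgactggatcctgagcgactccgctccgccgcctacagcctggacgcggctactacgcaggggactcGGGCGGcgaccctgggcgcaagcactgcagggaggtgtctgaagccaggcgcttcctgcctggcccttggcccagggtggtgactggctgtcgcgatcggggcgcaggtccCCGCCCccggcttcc

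Both strands were searched for 4 motifs. The GC box, GGGCGG, was found 1 time in the Egfr window, beginning 9 bases before the start, and 2 times in the Tgfa window, beginning 126 and 15 bases before it, and 32.7% of all 32851 windows of this length hold it. The Areg window held it 1 time, and the Btc and Erbb2 windows did not hold it. The direct repeat that PPARG binds with its partner RXR, 2 copies of AGGTCA with any 1 base between them, a single AGGTCA, which overlaps that repeat, and the AP-1 motif TGANTCA were in none of the 5 windows. They occur in 0.0335%, 14% and 6.75% of all windows. These matches describe letters in a short window and say nothing of binding.

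The ligands lay higher in the transgenic cultures on 6 of 6 tested probe sets, and the receptors lay lower on 6 of 6, or on 5 of 6 when every array was scaled to the same median. Of the 6 receptor probe sets 5 were of Egfr and the other of Erbb2, and Hbegf and Btc each had more than 1 of the ligand ones. Probe sets of 1 gene are not independent, so the counts and medians below are not of separate genes, and the receptor ones mostly describe Egfr. Over all 22519 tested probe sets 43.5% lay higher. No member passed the threshold in limma with all 6 arrays (Benjamini-Hochberg adjusted p of at least 0.226 for each), and 0% of all tested probe sets did. At an unadjusted p under 0.05, 1 of 6 ligand probe sets lay higher and 4 of 6 receptor probe sets lay lower, the latter all of Egfr, against 5.79% of all tested probe sets higher and 10.2% lower. Among the latter, Egfr 1457563_at reached the testing level only through its control values. The filter thus favoured its lower direction, which adds no support to any of the counts here. Without transgenic replicate 3, limma called 6 of 12 member probe sets, Ereg higher and all 5 of Egfr lower, while it called 17.9% of all tested probe sets (7.2% higher and 10.7% lower). In that comparison the groups did not overlap on 5 of 6 ligand probe sets, all higher, and on 6 of 6 receptor probe sets, all lower, against 21.6% of all tested probe sets higher and 30% lower. With all 6 arrays the median difference over the ligand probe sets was 0.74 and over the receptor probe sets -1.08, against -0.06 over all tested probe sets. With transgenic replicate 3 left out these medians were 1.23, -1.66 and -0.09. The member counts at an unadjusted p under 0.05 with all 6 arrays depended on the scaling. With arrays scaled to the same median, limma gave Ereg, Tgfa and Hbegf 1418349_at an unadjusted p of 0.0131, 0.0127 and 0.0243. Of Egfr only 1457563_at was then under 0.05 (0.0206), and its other tested probe sets were at 0.0608 to 0.185. That scaling moved the differences of all probe sets upward, by 0.27.

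**Figure D1:**
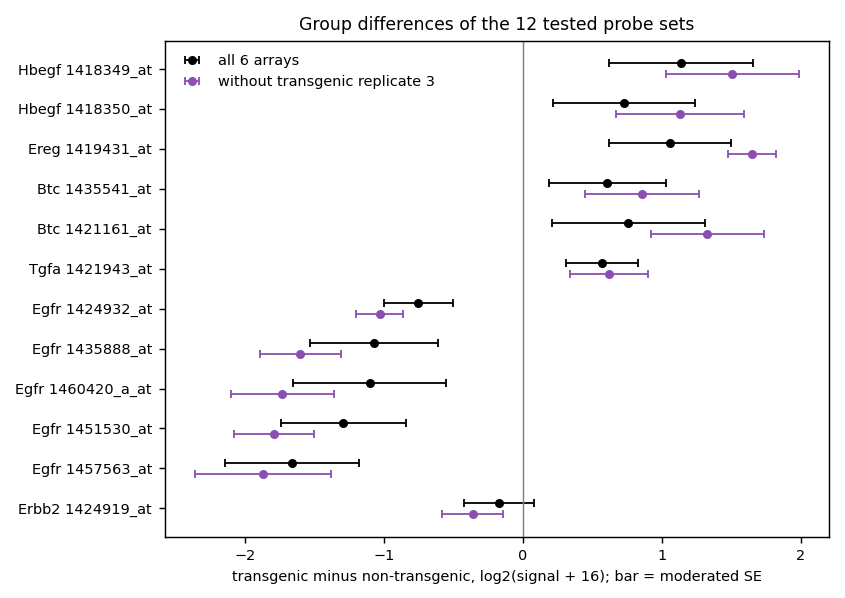
Difference between the groups (transgenic minus non-transgenic, log2(signal + 16), horizontal axis) for the 12 tested probe sets, with all 6 arrays in black and without transgenic replicate 3 in purple, and bars for limma's moderated SE. The 6 ligand probe sets lie right of 0 and the 6 receptor probe sets, 5 of them of Egfr, left of it. Egfr 1457563_at, which was tested only through its control values, lies farthest left, at -1.66 with all 6 arrays. Erbb2 moves to the right of 0, at 0.10, when arrays are scaled to the same median.

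Epiregulin, Ereg, a ligand of EGFR and ErbB4 that is released by inflamed and proliferating cells, was high in transgenic replicates 1 and 2 and at the control level in replicate 3. Its probe set, 1419431_at, had signals of 5392, 6086 and 6179 in the controls and of 15635, 21800 and 5456 in the transgenic cultures. The control values lay close together, and the groups overlapped through transgenic replicate 3 alone. The difference was 1.06 ± 0.44 (SE, limma adjusted p = 0.298), a 2.09-fold higher level. Without transgenic replicate 3 it was 1.65 ± 0.17 (limma adjusted p = 0.00204), or 3.14-fold, with both remaining transgenic cultures above all 3 controls. Without transgenic replicate 2 it was 0.65.

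Heparin-binding EGF-like growth factor, Hbegf, a ligand that signals to smooth muscle cells, had 2 probe sets, and on both transgenic replicate 2 stood far above the rest. On 1418349_at the signals were 351.1, 379.4 and 305.7 in the controls and 510.9, 1967 and 459.2 in the transgenic cultures, so that the groups did not overlap. On 1418350_at they were 282.6, 300.5 and 335.1 against 361.7, 1292 and 290.5, and here transgenic replicate 3 lay among the controls. Transgenic replicate 2 exceeded transgenic replicate 1 by 1.91 and 1.79 on the log2 scale. The differences between the groups were 1.14 ± 0.52 (SE, limma adjusted p = 0.328) and 0.73 ± 0.51 (limma adjusted p = 0.495). Without transgenic replicate 2 they were 0.47 and 0.08, and without transgenic replicate 3 they were 1.51 and 1.13 and did not pass (limma adjusted p = 0.0622 and 0.121).

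Betacellulin, Btc, which binds EGFR and ErbB4, had the same single high culture. Its brighter probe set, 1435541_at, had signals of 762.2, 1092 and 1129 in the controls and of 1067, 3005 and 1059 in the transgenic cultures, with transgenic replicates 1 and 3 inside the control range. The dimmer one, 1421161_at, was at 273.5, 379.2 and 442.5 against 569.8, 1494 and 269.2, with replicate 1 also above the controls and replicate 3 just below them. The differences were 0.61 ± 0.42 (SE, limma adjusted p = 0.484) and 0.76 ± 0.55 (limma adjusted p = 0.511), and 0.12 and 0.13 without transgenic replicate 2. With transgenic replicate 3 left out they were 0.86 and 1.33 and did not pass (limma adjusted p = 0.17 and 0.0547). For Hbegf and Btc the high culture was the one in which most leukocyte and macrophage markers lay above the testing level. The 10 markers had a mean log2 level of 8.66 there, against 6.44 to 7.15 on the other arrays, with Laptm5 at 9.22 and Ctss at 9.82 against at most 7.19 and 7.20 elsewhere. Not every marker of the list did this. Ptprc was lowest in that culture, at 5.83, and Csf1r, the 1 marker of the list that was tested, lay high in all 3 transgenic cultures, at 11.03, 10.49 and 10.59 against 8.61 to 9.06 in the controls (these 4 markers were named after their values were seen). The epithelial and mesothelial markers also had their highest mean log2 level in transgenic replicate 2, 8.46 against 7.10 to 8.21 on the other arrays. Members of that list went both ways, Krt19 at 11.44 there against 6.31 to 8.78 and Wt1 at 9.33 against 9.14 to 10.99 (also named after their values were seen). The part of any of these cell types in the Hbegf, Btc and Ereg values was not tested.

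Transforming growth factor alpha, Tgfa, a ligand of EGFR, was alone among the ligands in lying near 1 level in all 3 transgenic cultures. On 1421943_at the signals were 605.6, 493.9 and 370.9 in the controls and 747.7, 751.5 and 671.6 in the transgenic cultures. The groups did not overlap, transgenic replicate 3 included, and the spread lay within the controls, with an SD of 0.34 against 0.09 on the log2 scale. The difference was 0.57 ± 0.26 (SE, limma adjusted p = 0.331), or 1.49-fold, and it ranged from 0.39 to 0.73 as each array was left out. The other probe sets of Tgfa lay under the testing level. 1450421_at was at 66.5 to 142.6 in the controls and at 138.2 to 199.7 in the transgenic cultures, a difference of 0.49, and 1421942_s_at was at 27.3 to 92.1 against 29.8 to 63.2, a difference of -0.10. On both the groups overlapped. Groups not overlapping and higher in the transgenic cultures were found for 2 of the 6 tested ligand probe sets, 1 of Hbegf and 1 of Tgfa, and for 8.3% of all tested probe sets.

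**Figure D2:**
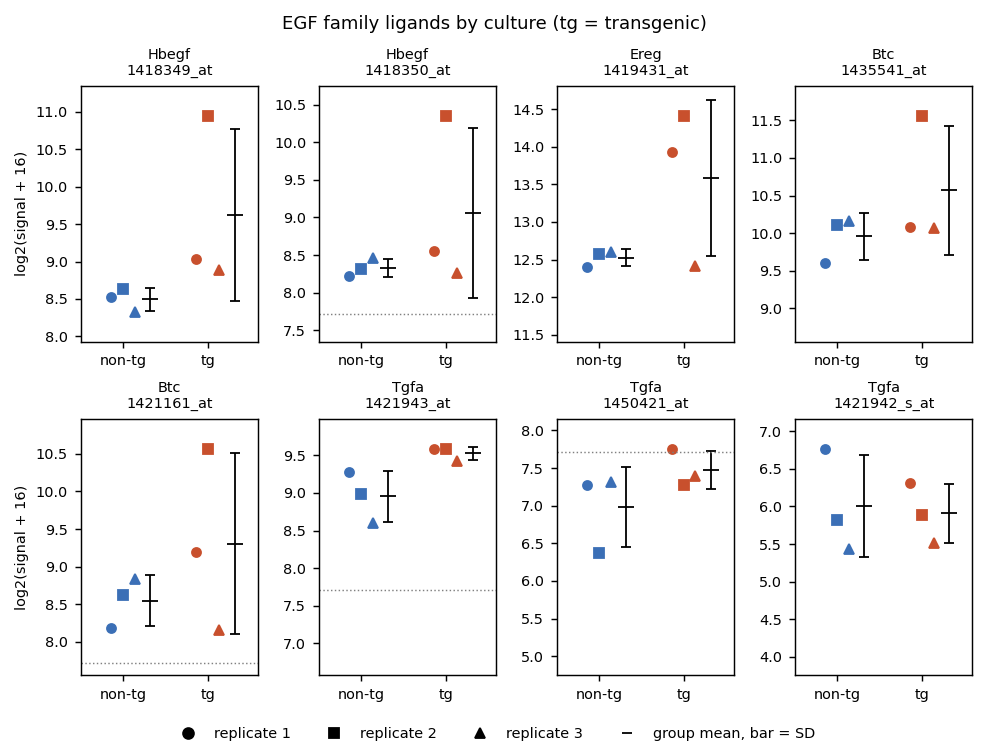
log2(signal + 16) of each culture for the 8 ligand probe sets (each panel has its own vertical axis), non-transgenic in blue and transgenic in red, with group means, SD bars (n = 3) and a dotted line at the testing level where it falls within the panel. Transgenic replicate 2 (square) is the highest culture for Hbegf, Ereg and Btc, while the 3 transgenic cultures lie together at 9.43 to 9.58 for Tgfa 1421943_at.

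Egfr, the receptor of all the ligands above, lay lower in the transgenic cultures on all 7 of its probe sets, 5 of them tested. These read parts of 1 gene and are not independent of each other. On the probe set with the highest signal, 1424932_at, the controls were at 19728, 21330 and 23538 and the transgenic cultures at 12761, 8621 and 18704. Every transgenic culture was below every control, replicate 2 the lowest and replicate 3 close under the control range. The difference was -0.75 ± 0.25 (SE, unadjusted p = 0.0164, limma adjusted p = 0.243), or 1.69-fold lower. Without transgenic replicate 3 it was -1.03 ± 0.17 (limma adjusted p = 0.00746).

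The same order of the transgenic cultures, replicate 2 lowest and replicate 3 highest, held on all 5 tested Egfr probe sets. On 1435888_at the controls were at 7283, 9566 and 8040 and the transgenic cultures at 3924, 1870 and 8212. On 1460420_a_at they were at 4702, 6124 and 7147 against 2865, 1093 and 6556. On both, transgenic replicates 1 and 2 lay below all controls and replicate 3 among them. On 1451530_at the controls were at 1063, 1218 and 1218 and the transgenic cultures at 437.7, 240.3 and 956.8, with no overlap. On 1457563_at they were at 192.8, 385.3 and 739.7 against 111.4, 76.8 and 155.4, also with no overlap, although the controls themselves differed widely (SD 0.93 on the log2 scale). This probe set reached the testing level, a signal of 194.3, only through non-transgenic replicates 2 and 3. The filter thus favoured a lower value in its transgenic cultures. The differences were -1.07 ± 0.46, -1.10 ± 0.55, -1.29 ± 0.45 and -1.66 ± 0.48 in this order (SE, limma adjusted p = 0.309, 0.361, 0.255 and 0.226).

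Without transgenic replicate 2 the 5 differences, 1424932_at first, were -0.47, -0.54, -0.44, -0.83 and -1.43. The last 4 were -1.60, -1.73, -1.79 and -1.87 without transgenic replicate 3 (limma adjusted p = 0.01, 0.017, 0.00732 and 0.0338). Groups not overlapping and lower in the transgenic cultures were found for 3 of the 5 tested Egfr probe sets, against 11.8% of all tested probe sets. Of the 2 dim Egfr probe sets, 1432647_at was at 185.0 to 207.3 in the controls and at 66.5 to 120.7 in the transgenic cultures, a difference of -0.89 with no overlap. 1454313_at was at 27.8 to 195.5 against 27.0 to 48.7, a difference of -0.61 set by 1 bright control culture. Egfr is known to be well expressed in fibroblasts, and the 9 fibroblast markers had mean log2 levels of 13.01 to 13.11 in the controls and of 12.60, 12.16 and 12.99 in transgenic replicates 1, 2 and 3. The members of that list went both ways, Dcn lying at 14.15 to 14.71 in the controls and at 13.16, 11.79 and 14.18 in the transgenic cultures, and Thy1 at 12.23 to 13.04 against 13.77, 13.56 and 13.05. Adipocyte markers, of which 5 had a probe set and 4 reached the testing level, had mean log2 levels of 11.11, 8.87 and 8.63 in the controls and of 7.90, 6.65 and 8.83 in transgenic replicates 1, 2 and 3. Their lowest 2 cultures were thus those with the lowest Egfr. The controls did not follow this order. Non-transgenic replicate 1 had the highest adipocyte mean, 11.11, but the lowest control value on every tested Egfr probe set. Adipoq, named like Dcn and Thy1 after its values were seen, was at 12.13 to 14.33 against 11.41, 8.30 and 12.30. The part of fibroblasts and adipocytes in the Egfr values was not tested.

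Erbb2, which has no known ligand of its own and pairs with the other receptors, showed no difference beyond its spread. Its probe set, 1424919_at, was at 1237, 1141 and 1165 in the controls and at 992.0, 844.6 and 1359 in the transgenic cultures. Transgenic replicates 1 and 2 lay below the controls and replicate 3 above them. The difference was -0.17 ± 0.25 (SE, limma adjusted p = 0.748), and it turned to 0.10 when arrays were scaled to the same median. Erbb3, a receptor with little kinase activity that binds neuregulins, lay under the testing level on both probe sets. 1434606_at was at 106.4 to 149.3 in the controls and at 110.8 to 122.2 in the transgenic cultures, and 1452482_at at 2.1 to 19.5 against 5.6 to 16.7. The differences of -0.10 and -0.02 came with full overlap.

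**Figure D3:**
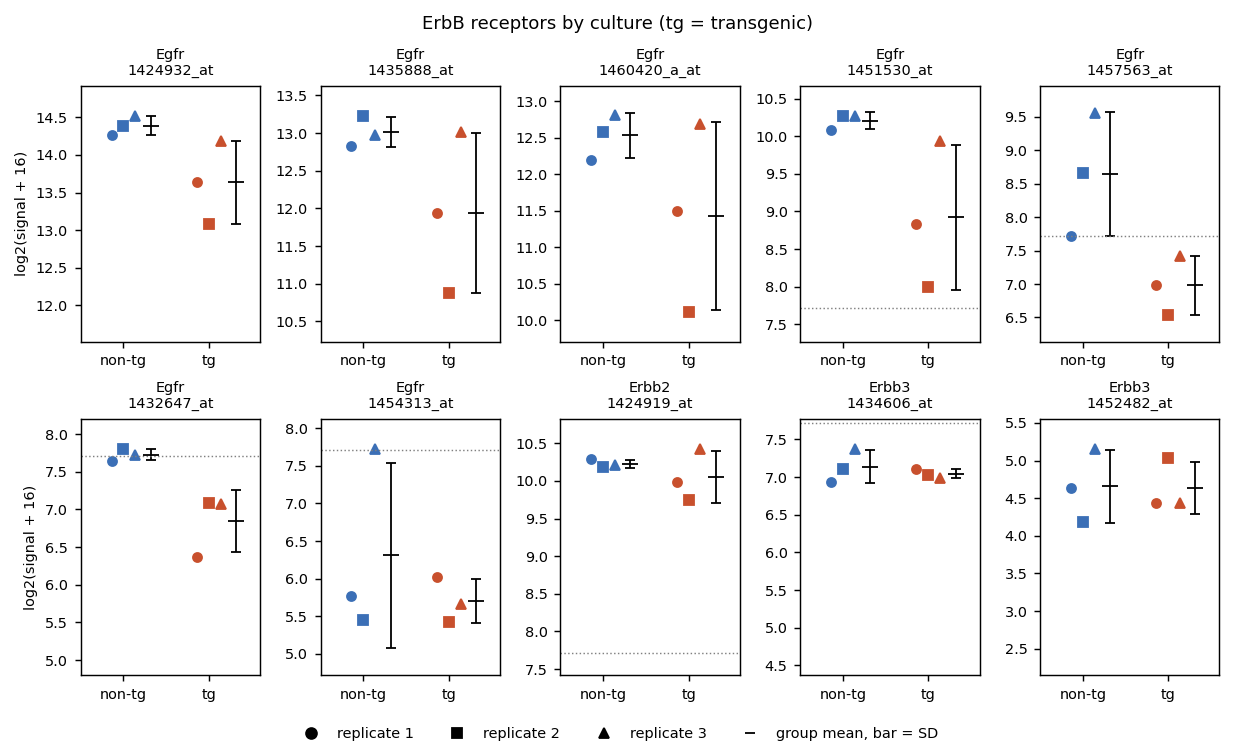
log2(signal + 16) of each culture for the 10 receptor probe sets (each panel has its own vertical axis), non-transgenic in blue and transgenic in red, with group means, SD bars (n = 3) and a dotted line at the testing level where it falls within the panel. On the 5 tested Egfr probe sets (top row) transgenic replicate 2 (square) is lowest and replicate 3 (triangle) lies near or among the controls, while Erbb2 and Erbb3 overlap between the groups.

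With the Gapdh 3' to 5' ratio as a covariate most ligand and receptor differences shrank or changed sign. The differences of Ereg, of both Hbegf and of both Btc probe sets turned to between -1.10 and -0.22, and those of Egfr 1435888_at and 1460420_a_at to 0.17 and 0.27. Tgfa stayed at 0.77, Egfr 1457563_at at -1.90, and Egfr 1424932_at and 1451530_at were at -0.15 and -0.18, and no member passed in this fit. The ratio was lowest, at 1.20, in transgenic replicate 2, the culture with the most extreme values on the tested Ereg, Hbegf, Btc and Egfr probe sets, and 1.44 in transgenic replicate 3. Its values did not overlap between the groups, so with 6 arrays this fit cannot tell the ratio and the transgene apart. It does not decide whether a difference is kept.

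Other genes of the pathway were taken from lists by role, each gene read by its brightest probe set on average. The lists were chosen with earlier results of these data known. Their counts beside the share of all tested genes therefore describe the lists and are no independent test. Of 71 genes, 66 had a probe set under their name and 58 were tested. None passed in limma with all arrays, where 0% of all 11208 tested genes did. At an unadjusted p under 0.05, 4 lay higher and 3 lower, against 6.62% and 5.42% of all tested genes. With transgenic replicate 3 left out limma called 12 higher and 5 lower, against 7.72% and 9.09% of all tested genes. Nrg1, which was tested only through its control values, is among the lower genes in both counts.

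Of 6 other ligands 2 were tested, and both lay lower. Both were dim and reached the testing level, 7.72 on the log2 scale, only through their control values. The filter thus favoured the lower direction for them. Nrg1, the neuregulin that binds ERBB3 and ErbB4, was at log2 levels of 8.08, 8.92 and 8.13 in the controls and of 6.66, 6.91 and 7.86 in the transgenic cultures, with no overlap, a difference of -1.23 ± 0.40 (SE, limma adjusted p = 0.237, and 0.0176 without transgenic replicate 3). Egf itself was at 8.35, 8.25 and 7.73 against 7.47, 6.62 and 8.27, a difference of -0.66 ± 0.43 (SE, limma adjusted p = 0.463). Nrg1 and Egf were opposite in sign to Ereg, Hbegf, Btc and Tgfa, but given the filter this sets no contrast between ligands, and it was not tested. The other ligands of the list lay under the testing level and went both ways. Epgn differed by 0.15, Nrg2 by -0.01, Nrg3 by -0.15 and Nrg4 by -0.86. Erbb4 lay under the testing level.

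Of the sheddases, which release the ligands, and their partners, which include an inhibitor, 7 of 8 were tested. Of these 5 lay higher and 2 lower, with a median difference of 0.01 and 0 with an unadjusted p under 0.05 in limma. The metalloprotease inhibitor Timp3 differed by 0.89 ± 0.66 and the protease Adam19 by 0.35 ± 0.33 (SE, limma adjusted p = 0.518 and 0.604). Single arrays moved both, Timp3 from 0.40 without transgenic replicate 2 to 1.64 without non-transgenic replicate 1, and Adam19 from 0.03 without non-transgenic replicate 3 to 0.63 without non-transgenic replicate 1. Adam17, the main sheddase and named here for that role, was at 12.19, 12.40 and 12.34 in the controls and at 12.18, 12.03 and 12.37 in the transgenic cultures on the log2 scale.

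Of the adaptors and kinases, 18 of 23 were tested, with 8 higher and 10 lower and a median difference of -0.08, against -0.02 over all tested genes. Pik3r1, the regulatory subunit of PI3 kinase, was at log2 levels of 13.78, 13.76 and 13.78 in the controls and of 12.50, 12.42 and 13.39 in the transgenic cultures. The controls lay within 0.02 of each other and all 3 transgenic cultures below them, replicate 3 included. The difference was -1.0 ± 0.25 (SE, limma adjusted p = 0.214, and 0.00151 without transgenic replicate 3), with the same sign on all 4 of its tested probe sets. The catalytic subunit Pik3ca differed by -0.52 ± 0.21 (SE, limma adjusted p = 0.29). In the fit without transgenic replicate 3, limma called 3 of the 18 lower, against 9.09% of all tested genes. These were Pik3r1, the docking protein Gab1 and the Ras exchange factor Sos2, the last 2 named after their values were seen.

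Feedback inhibitors and genes of receptor turnover lay higher in 13 of 19, where 47.5% of all tested genes did, with a median difference of 0.24. Socs5, a SOCS protein that promotes EGFR degradation, was at log2 levels of 12.59, 12.65 and 12.46 in the controls and of 13.49, 13.65 and 12.69 in the transgenic cultures, so that the groups did not overlap, with a difference of 0.71 ± 0.25 (SE, limma adjusted p = 0.253, and 0.00477 without transgenic replicate 3). Usp8, a deubiquitinase that acts on EGFR in endosomes, differed by -0.39 ± 0.20 (SE, limma adjusted p = 0.367). Without transgenic replicate 3, limma called 5 of the 19 higher and 1 lower, against 7.72% and 9.09% of all tested genes. Besides Socs5 these were, named after their values were seen, the ERK phosphatases Dusp4, Dusp5 and Dusp6 (2.90, 2.01 and 1.54), the Ras pathway inhibitor Spred1 (0.62) and, lower, Lrig3 (-0.80). Dusp4 and Dusp6 also lay high in 1 control, non-transgenic replicate 1, at 11.65 against 9.54 and 8.88 and at 13.14 against 11.87 and 11.78. So did Spry1, at 11.47 against 9.39 and 8.61, and Spry4, at 11.48 against 9.35 and 9.63, both not called.

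Transcripts induced downstream of the kinase cascade lay higher in 9 of 12 tested of 14 listed, against 47.5% of all tested genes, with a median difference of 0.76. Ier3, an immediate early gene that acts in ERK signalling, was at log2 levels of 12.01, 11.98 and 11.99 in the controls and of 13.59, 13.49 and 12.46 in the transgenic cultures. All 3 transgenic cultures lay above controls that nearly coincided, and the difference was 1.19 ± 0.29 (SE, limma adjusted p = 0.213, and 0.00151 without transgenic replicate 3). Fosl1, an AP-1 subunit that ERK stabilises, was at 9.29, 7.70 and 7.78 against 11.90, 12.61 and 8.34. Transgenic replicates 1 and 2 lay far above the rest, and replicate 3 lay between the controls, for a difference of 2.69 ± 1.01 (SE, limma adjusted p = 0.273), and of 4.0 (limma adjusted p = 0.00287) without transgenic replicate 3. Without transgenic replicate 2 it was 1.86. In the fit without replicate 3 limma called 7 of the 12 higher and 0 lower, against 7.72% and 9.09% of all tested genes. Of those called, Fosl1, Etv5, Lif and Ccnd1 also lay well above the other controls in non-transgenic replicate 1, while Ier3, Plaur and Ptgs2 did not. Etv5 was there at 12.74 against 11.07 and 11.10, and Lif at 9.06 against 7.74 and 7.66. Not all transcripts of this list lay higher. The immediate early genes Fos, Egr1 and Myc, named after their values were seen, differed by -0.18, -0.18 and -0.17. For Fos the groups did not overlap, with the controls at 14.24 to 14.27 and all 3 transgenic cultures lower, at 14.02 to 14.12. When the Gapdh ratio was a covariate, Fosl1, Ier3, Socs5 and Pik3r1 differed by 0.93, 0.62, 0.17 and -0.43.

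**Figure D4:**
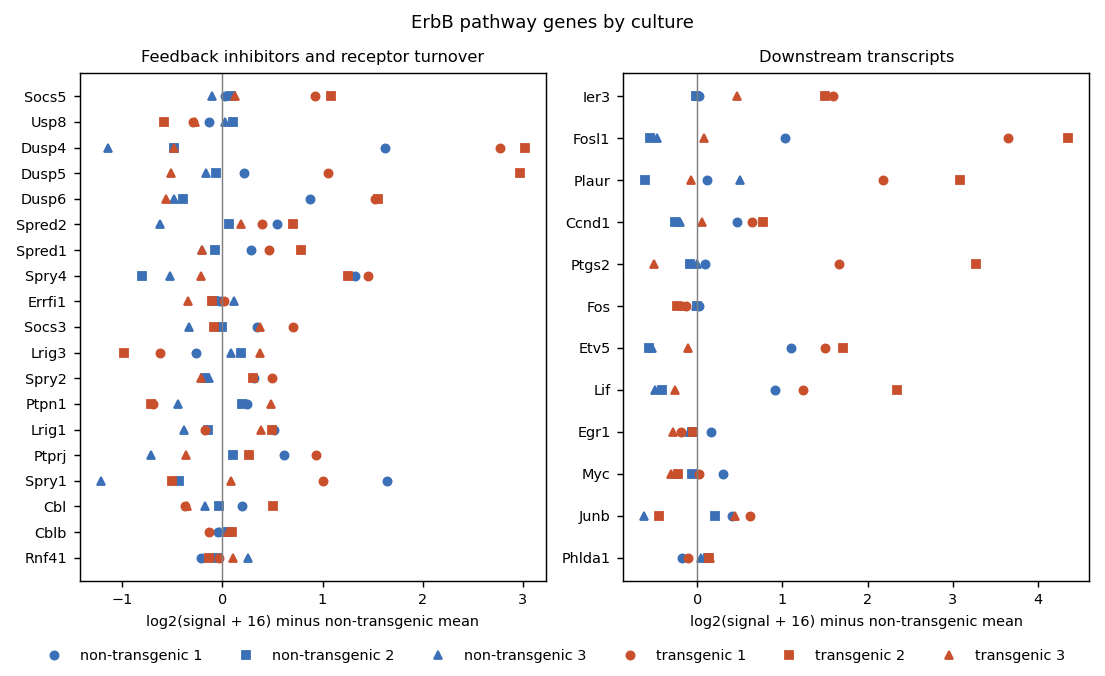
log2(signal + 16) minus the non-transgenic mean (horizontal axis) of each culture for the 19 tested feedback and turnover genes (left) and the 12 tested downstream transcripts (right), in order of p, with non-transgenic cultures in blue and transgenic ones in red. Transgenic replicates 1 and 2 lie far right for Dusp4, Dusp5, Fosl1, Plaur and Ptgs2. Replicate 3 (red triangle) lies with the controls there, or left of them for Dusp5 and Ptgs2. Non-transgenic replicate 1 lies right of the other controls for Dusp4, Dusp6, Spry1, Spry4 and Etv5, among others.

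The genes whose values ran most like each member across the 6 arrays were found from the root mean square difference of their profiles, after each profile was centred on its mean. Only genes that varied at least as much as the member were considered, and with 823 to 13951 candidates per member some closeness is to be found for any profile. For Egfr (1424932_at) they were Ust, a sulfotransferase of dermatan sulfate, at a root mean square difference of 0.032 on the log2 scale, and Tmem159, at 0.0571. Ust was at 12.53, 12.70 and 12.86 in the controls and at 11.90, 11.32 and 12.46 in the transgenic cultures, the same order as Egfr in all 6. For Ereg they were Glipr2 (0.0778) and 2210409E12Rik (0.111). Glipr2 was at 10.35, 10.39 and 10.39 against 11.80, 12.37 and 10.16, again with transgenic replicate 3 at the control level. For Hbegf they were Styk1, a kinase-like protein (0.293), and Tmem202 (0.331), for Btc the helicase Helq (0.12) and the glutaredoxin Glrx2 (0.178), for Tgfa Fam149a (0.0642) and Gatad1 (0.0827), and for Erbb2 progranulin, Grn (0.0227), and Akr7a5 (0.0279).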

How the data were processed

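RNA of 6 aortic endothelial cell cultures, 3 per group, was measured on Affymetrix mouse genome arrays after amplification of about 50 ng of total RNA, per the labels. The deposited values are intensities, not logged, for every probe set of each array. Per the submitters' processing notes MAS5 produced them (version not given in the sources used). MAS5 scales each array, and this scaling was kept. The sample titles gave the groups and replicate numbers.

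Gene names came from the array annotation, with 34945 probe sets naming 1 gene, 932 several and 9160 none, and symbols were updated by gene identifier for 34741. Values were computed as log2(intensity + 16). Of 45037 probe sets, leaving out 64 controls, 22519 with a mean at or above the median were tested two-sided with limma 3.58.1 in R 4.3.3 (lmFit, eBayes with a trend) and Benjamini-Hochberg adjustment at 0.05 over all of them. Standard errors are limma's moderated ones. The test was checked on simulated data.

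All member probe sets are given. Of the pathway lists, the 2 genes per list with the smallest p are named, and of the genes most like a member the closest 2. The members and lists were chosen with earlier results of these data known. The alternatives changed the pseudocount (1 or 64), the filter, the scaling, the variance trend, the array weights or the summary per gene, added a replicate block or a covariate, or left out 1 array.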

Additional observations from a re-analysis of the deposited data

How the results depend on the processing

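Of 195 values of the 12 tested member probe sets under the alternatives, 186 kept their direction. The other 9 came from the fit with the Gapdh ratio, at -0.22 and -0.78 for Hbegf, -0.24 for Ereg, -0.70 and -1.10 for Btc, 0.17 and 0.27 for Egfr and 0.29 for Erbb2, and from arrays scaled to the same median, at 0.10 for Erbb2. Egf turned to 0.63 with the Gapdh ratio. The cause was not tested. Scaling to the same median moved all differences by 0.27, so that 4890 probe sets lay higher and 826 lower at an unadjusted p under 0.05 (85.5% higher), against 1304 and 2298 (36.2% higher) as deposited, and 1692 and 1811 (48.3% higher) with quantile normalization.

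No probe set, member or pathway gene passed limma's adjusted threshold except with array weights (11078 probe sets, 7 members and 33 pathway genes, in a fit that stopped before its convergence tolerance and rested mostly on transgenic replicate 1, weight 5.48, and non-transgenic replicate 2, weight 3.39) and without transgenic replicate 3. As each array was left out, called counts ran from 0 to 4023 probe sets, 0 to 6 members and 0 to 17 pathway genes, the highest each without transgenic replicate 3. Counts at an unadjusted p under 0.05 were 3602, 5 and 7, and ran from 1559 to 7847, from 1 to 9 and from 3 to 25. They were 12632, 9 and 37 with array weights. With the Gapdh ratio they were 2254, 0 and 4, and with the filter at the 75th percentile 1443, 3 and 4, where fewer probe sets are tested. Probe sets numbered 6103 without a filter and 5716 with arrays scaled to the same median, where pathway genes numbered 18. With each gene read by its brightest probe set there were 1288 genes and 2 members, and with the mean of its probe sets 1 member.

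With the replicate number as a block 12 pathway genes had an unadjusted p under 0.05, and no call at the adjusted threshold changed. Deviations from the group means of same-numbered arrays correlated at 0.06, -0.23 and -0.05, so the numbers were not taken to pair the cultures. The number of arrays and, for the 6 member probe sets under the testing level, the low signal limit what can be seen.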
